A study of Mus musculus with 23 samples.

Results

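The genes described here are 10 direct targets, feedback inhibitors and nuclear effectors of canonical Wnt signalling: Lef1, Tcf7, Axin2, Nkd1, Nkd2, Rnf43, Znrf3, Notum, Dkk1 and Sp5. They were picked by symbol and by their known role, with earlier results of these data known. All 10 are among the 34682 rows of the table that compares Inv1DelCTCF with Inv1. RNA was sequenced from the distal part of the forelimb of mice at embryonic stage E11.5. The 2 Inv1DelCTCF libraries come from a mutant whose name reads as the inversion Inv1 with loss of a CTCF site, and the 3 Inv1 libraries come from the mutant with the inversion alone. Both groups therefore carry Inv1, which, per the study's design, places enhancers of the Epha4 domain in a gene-dense region. All libraries carry the label G4 ESC, a mouse embryonic stem cell line, and the submitters call the libraries of a group biological replicates, without saying how many clones or litters they came from.

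The series holds 23 libraries in all, among them 5 of wild type, 4 of Inv2, 3 of Inv3 and 3 of Inv4. The other 4 tables, which set mutants against wild type, name 79 genes and none of the 10, so no level in wild type or in the other inversions can be given. Each table holds 1 comparison per gene and no value per library. Group levels were therefore rebuilt from the mean normalised count over the 5 libraries and the log2 change, and their error is known only through the standard error (SE) of that change. Depth per library is unknown. The means of all rows in the authors' deposited table add up to 3.02e+07 normalised counts, and 11218 rows have an adjusted p, all of them with a mean of 113 or more. Markers of limb mesenchyme were present, with a mean of 19242 normalised counts for Hoxd13 and 25893 for Prrx1 in the authors' deposited table. A gene is said here to have risen or fallen where the adjusted p of the authors' DESeq2 Wald test was under 0.05, and log2 changes are Inv1DelCTCF minus Inv1, so a negative one means lower in Inv1DelCTCF. The deposited changes were inferred to be Inv1 over Inv1DelCTCF, as described further below. Their sign was therefore turned in every value given, also where it is credited to the authors' deposited table.

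In canonical Wnt signalling, a secreted Wnt binds a Frizzled receptor and an Lrp co-receptor, which stops the destruction complex from degrading beta-catenin. Beta-catenin then enters the nucleus and turns TCF/LEF proteins on DNA from repressors into activators. Many of the genes they switch on act back on the pathway, as brakes at the cell surface, in the cytoplasm or outside the cell, so that they are widely used as readouts of pathway activity. In the limb bud, Wnt signals in the surface ectoderm are needed for the apical ridge and for dorsal identity, and Wnt signals to the mesenchyme keep it growing and undifferentiated.

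The DNA motif of TCF/LEF proteins was looked for near the start sites of these genes, since it is the element through which they would read the pathway. The 7-letter forms searched, on both strands, were CTTTGAA or CTTTGAT and also CTTTGTA or CTTTGTT. The search covered windows of 250 bases before to 50 after each start site annotated by RefSeq on GRCm38.p6. Windows were at hand for 8 of the 10 genes, all but Notum and Znrf3. Of these 8 genes, 3 had a match in at least 1 window, and so had 18.9% of the 27025 genes with a window. Of single windows, 3 of 13 had a match, against 16.9% of all 32851 windows. Dkk1 held a pair of matches, 117 and 98 bases before its start, and Sp5 held 1 match 222 bases and 1 match 104 bases before its start, while Lef1 held 1 in the window of the most downstream of its 4 starts, 147 bases before it. In the stretches below, read 5′ to 3′ on the strand of the gene, capitals mark the match; in the first Sp5 stretch and in Lef1 it lies on the opposite strand.
Dkk1, chr19:30549576-30549625, minus strand: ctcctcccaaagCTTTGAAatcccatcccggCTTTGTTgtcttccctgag
Sp5, chr2:70474689-70474719, plus strand: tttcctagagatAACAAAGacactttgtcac
Sp5, chr2:70474807-70474837, plus strand: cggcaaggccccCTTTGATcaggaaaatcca
Lef1, chr3:131156135-131156165, plus strand: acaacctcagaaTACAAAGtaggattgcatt

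The other windows of these genes held none of these letters, which says nothing of sites elsewhere. Those of Axin2 and of the upstream Tcf7 start were rich in the dinucleotide CG, with 31 and 45 in 300 bases against a median of 7 over all windows. This was not particular to them: the window of Nkd2, which was not called, had 26. The downstream Tcf7 window had 17 and those of Lef1 had 21, 18, 8 and 5. Dkk1 had 9, Nkd1 and Sp5 had 6 each, and Rnf43 had 10 and 3. The last 60 bases before the Axin2 start are given below, with each CG in capitals.
Axin2, chr11:108920289-108920348, plus strand: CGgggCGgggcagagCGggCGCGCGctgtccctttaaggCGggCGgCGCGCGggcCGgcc

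Of the 10 genes, 4 were lower in Inv1DelCTCF than in Inv1, namely Lef1, Tcf7, Axin2 and Znrf3, and none was higher. Both nuclear effectors fell, together with the intracellular brake Axin2 and the receptor ligase Znrf3, and their levels in Inv1DelCTCF lay between 70.1% (Tcf7) and 84.4% (Axin2) of those in Inv1. Sp5 had no adjusted p because of its low mean, so the count is 4 of 9 tested genes. Of all 11218 tested genes, 11.7% were called, 7.89% as lower and 3.81% as higher in Inv1DelCTCF. All 10 genes had a negative log2 change, as had 53.1% of all tested genes. The median log2 change was -0.25 over the 9 tested genes and -0.01 over all tested genes. The 9 are too few, and too alike in what they respond to, to be read as independent observations.

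**Figure D1:**
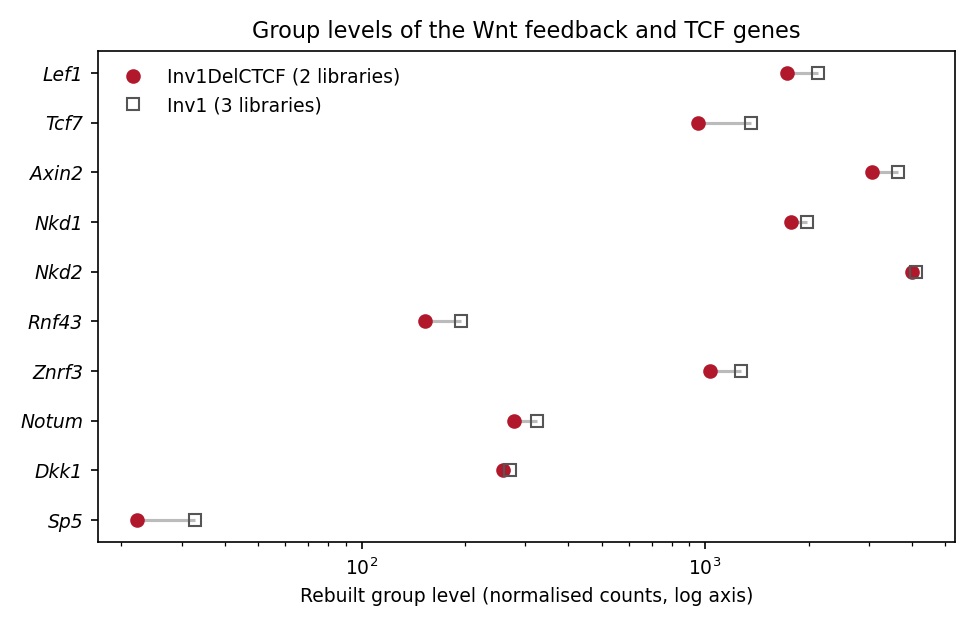
Rebuilt group level of each gene in normalised counts (log axis) in Inv1DelCTCF (filled circles, 2 libraries) and in Inv1 (open squares, 3 libraries). The circle lies left of the square for every gene, by most in proportion for Sp5 (22.1 against 32.8) and by least for Nkd2 (4010 against 4103); the levels carry no error bars because the tables hold no value per library.

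The transcription factors Lef1 and Tcf7 bind the same motif and carry beta-catenin to it, and both are themselves induced by Wnt signals in many tissues. Lef1 had a rebuilt level of 1729 normalised counts in Inv1DelCTCF, against 2134 in Inv1. The authors' deposited table gave Lef1 a log2 change of -0.30 with an SE of 0.072 (adjusted p = 0.00128), which places Inv1DelCTCF at 81.0% of the Inv1 level (95% interval 73.5% to 89.3%). Among the 10 genes Lef1 had the smallest p, which ranked 215 of the 11218 tested.

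Tcf7 had a rebuilt level of 952 normalised counts in Inv1DelCTCF, against 1357 in Inv1. By the authors' deposited table this is a log2 change of -0.51 with an SE of 0.134 (adjusted p = 0.00412). Inv1DelCTCF was thus at 70.1% of the Inv1 level (95% interval 58.5% to 84.2%), and only 1.14% of all tested genes had a lower log2 change. The intervals of Lef1 and Tcf7 overlap, and whether their changes differ in size was not tested.

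The TCF/LEF family has a further pair of members in the mouse, which belong to the list of nuclear cofactors described below. Tcf7l1, the member best known as a repressor of Wnt targets, fell as well, with rebuilt levels of 3144 normalised counts in Inv1DelCTCF and 4231 in Inv1. The authors' deposited table put the difference at -0.43 on the log2 scale with an SE of 0.075 (adjusted p = 4.00e-06). Tcf7l2 did not pass, with a log2 change of -0.12 with an SE of 0.096 (adjusted p = 0.460) by the authors' deposited table and a 95% interval of -0.30 to 0.07. It was named after its value was seen, to complete the family.

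Axin2 encodes a scaffold of the destruction complex and is the most widely used readout of canonical Wnt signalling. Its rebuilt level was 3067 normalised counts in Inv1DelCTCF, against 3635 in Inv1. In log2 units the authors' deposited table gave -0.25 with an SE of 0.069 (adjusted p = 0.00858), which is 84.4% of the Inv1 level (95% interval 76.8% to 92.7%). Of the 4 called genes it had the smallest change, and 10.9% of all tested genes had a lower log2 change. The call of Axin2 did not hold once a trend with transcript GC content was subtracted, as given further below.

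Nkd1 and Nkd2 encode naked cuticle proteins, which bind Dishevelled in the cytoplasm and dampen the signal, and neither was called. Nkd1 had a rebuilt level of 1784 normalised counts in Inv1DelCTCF, against 1973 in Inv1, and a log2 change of -0.15 with an SE of 0.103 (adjusted p = 0.376) by the authors' deposited table. Nkd2 had 4010 normalised counts in Inv1DelCTCF, against 4103 in Inv1, and a log2 change of -0.03 with an SE of 0.085 (adjusted p = 0.849) by the authors' deposited table. The 95% interval was 87.0% to 109.7% of the Inv1 level for Nkd2 and 78.6% to 104.0% for Nkd1. Both overlap that of Axin2, 76.8% to 92.7%. The differences between genes were not tested.

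Znrf3 and Rnf43 encode related membrane ubiquitin ligases that remove Frizzled from the cell surface, and they are held in check by R-spondins. Znrf3 had a rebuilt level of 1035 normalised counts in Inv1DelCTCF, against 1272 in Inv1. The authors' deposited table gave Znrf3 a log2 change of -0.30 with an SE of 0.088 (adjusted p = 0.0133), or 81.4% of the Inv1 level (95% interval 72.2% to 91.8%). The call of Znrf3 did not hold with the GC trend subtracted (adjusted p = 0.109). Rnf43 was less abundant, with 153 normalised counts in Inv1DelCTCF against 194 in Inv1. For Rnf43 the authors' deposited table gave a log2 change of -0.34 with an SE of 0.192 (adjusted p = 0.240), of similar size to that of Znrf3 but with an SE that would have required a change of 0.53 to pass. The pair is therefore not shown to differ, and the difference was not tested.

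Notum and Dkk1 encode secreted brakes, a carboxylesterase that strips the lipid from Wnt proteins and an antagonist that occupies the Lrp co-receptors. Notum had a rebuilt level of 278 normalised counts in Inv1DelCTCF, against 324 in Inv1, and a log2 change of -0.22 with an SE of 0.165 (adjusted p = 0.409) by the authors' deposited table. Dkk1 had 258 normalised counts in Inv1DelCTCF, against 270 in Inv1, and a log2 change of -0.07 with an SE of 0.163 (adjusted p = 0.838) by the authors' deposited table. Neither passed, and with these SE values a change smaller than 0.45 on the log2 scale could not have passed for either gene. Their 95% intervals, 68.7% to 107.5% of the Inv1 level for Notum and 76.4% to 119.2% for Dkk1, include the sizes of change seen for Lef1, Axin2 and Znrf3.

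Sp5, a zinc finger gene induced directly by beta-catenin in many mouse tissues, had a mean below 113, the lowest with an adjusted p. Its mean was 28.5 normalised counts in the authors' deposited table, with 22.1 rebuilt for Inv1DelCTCF and 32.8 for Inv1. The authors' deposited table listed a log2 change of -0.57 with an SE of 0.527 and no adjusted p, and the 95% interval of 33.0% to 138.3% of the Inv1 level includes both lower and higher levels. Nothing can be said of a change of Sp5 with an interval this wide. The 3 genes with a motif match thus comprise 1 that fell (Lef1), 1 that was tested and not called (Dkk1) and 1 with no adjusted p (Sp5).

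**Figure D2:**
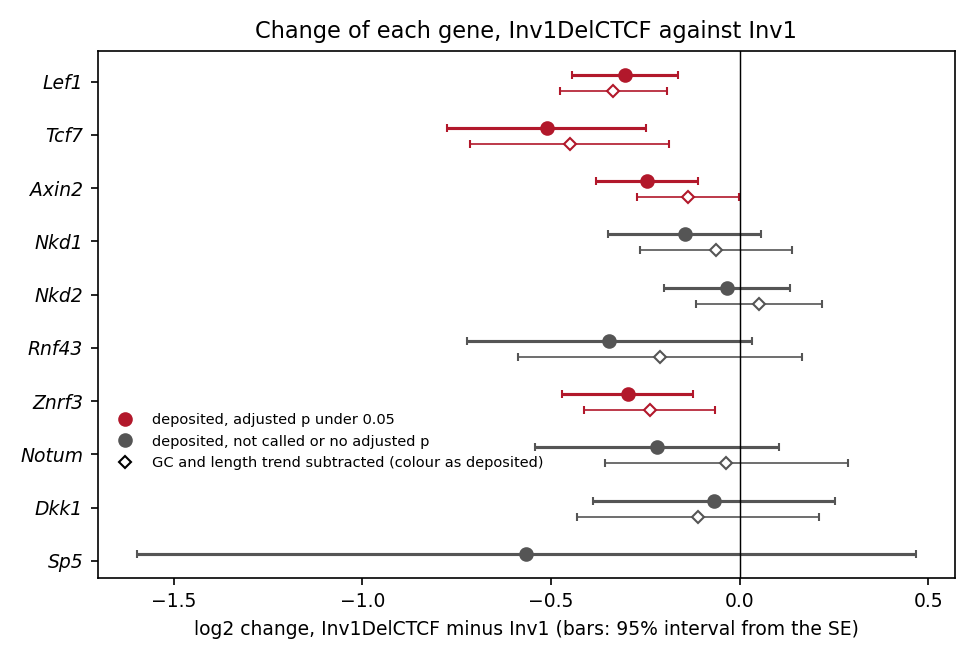
log2 change of each gene, Inv1DelCTCF minus Inv1, with its 95% interval from the SE. Filled circles are the deposited values, in red where the adjusted p was under 0.05, and open diamonds, in the colour of the deposited call, are the values after a trend in GC content and length was subtracted. Lef1 and Tcf7 lie well below 0 on both scales, whereas Nkd2 lies at -0.03 and 0.05.

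The genes differed widely in abundance per length. Set on the mean normalised count per kilobase of the longest annotated transcript, Nkd2 was highest at 1012, followed by Axin2 at 800.0 and by Lef1, Tcf7 and Nkd1 between 465 and 539. Znrf3 had 187, Notum 138, Dkk1 109, Rnf43 41.3 and Sp5 13.6. No error can be given for these levels, so neighbours in this order, such as Tcf7 and Nkd1 or Notum and Dkk1, are not shown to differ. By mean count, the 4 called genes are among the 6 most abundant, together with Nkd1 and Nkd2. The SE of the remaining 4 genes was at least 0.163, larger than that of any called gene.

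Some of the signal could come from overlapping transcripts. In the GENCODE M21 annotation, an antisense gene covers 1208 of the 8788 exonic bases of Lef1, another covers 209 of 5506 in Axin2, and a pair covers 708 and 210 of 2408 in Notum. None of these antisense genes has a row in the table, and the sources used here do not say whether counting used strand.

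Across the whole table the log2 change went with the GC content of the transcript. Over 10940 tested genes the Spearman correlation was -0.52, a description across genes that share the same 5 libraries. When the genes were divided into 4 equal bins by GC content, 18.9% of the richest bin were called lower and 0.548% higher in Inv1DelCTCF, and in the poorest bin 0.878% were called lower and 8.99% higher. The Wnt genes lie mostly on the rich side: 8 of the 10 have a transcript GC content above the tested median of 49.7%, the exceptions being Lef1 at 46.1% and Dkk1 at 45.9%. Whether the trend arose in the libraries or in the tissue was not tested.

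With that trend and one in length subtracted, and p-values made and adjusted anew, 2 of the 9 genes were lower and none was higher, where 3.66% of 10940 genes were called, 1.65% as lower and 2.01% as higher. Lef1 had a remaining log2 change of -0.33 (adjusted p = 0.000650) and Tcf7 one of -0.45 (adjusted p = 0.0302). Znrf3 kept most of its size, -0.24, without passing (adjusted p = 0.109), and Axin2 was left with -0.14 (adjusted p = 0.301). Nkd2 changed sign, to 0.05 (adjusted p = 0.823). Notum shrank to -0.03 and Rnf43 to -0.21, while Dkk1 moved to -0.11, and none of these passed. The median over the 9 genes was -0.14, against 0.01 over all genes. Over all genes the calls were 220 higher and 180 lower with the trend subtracted, against 427 higher and 885 lower as deposited.

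**Figure D3:**
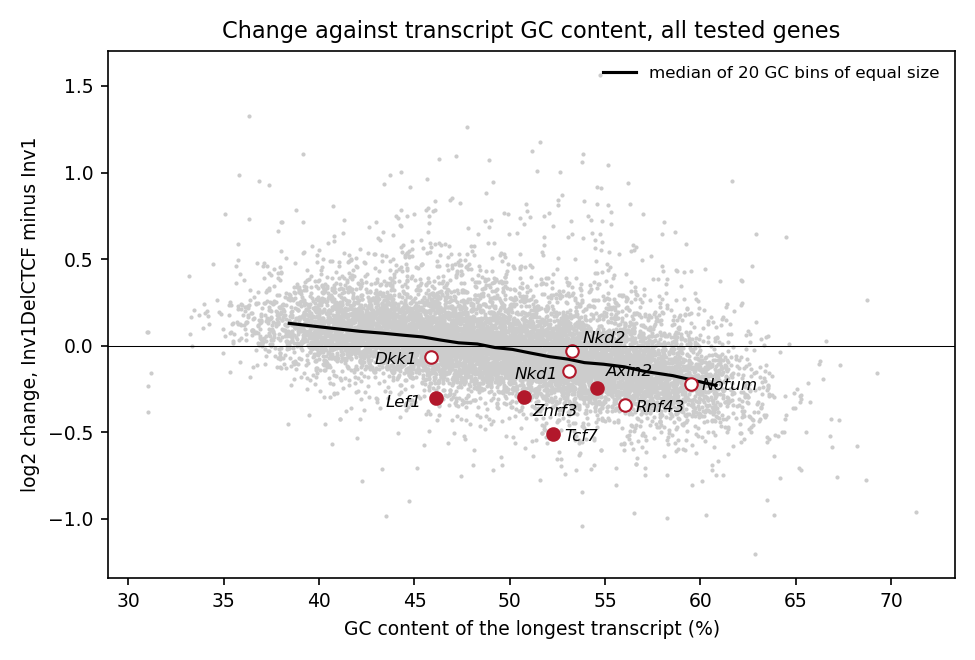
log2 change (Inv1DelCTCF minus Inv1) against the GC content of the longest transcript in percent, for all tested genes with an annotated transcript (grey) and the 9 tested Wnt feedback and TCF genes (red, filled where called lower). The black line joins the medians of bins of equal size and falls with GC content; Lef1 and Tcf7 lie far below it, and Nkd1, Nkd2 and Notum close to it.

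The other genes of the pathway, listed by role with earlier results of these data known, moved in the same direction where they were called. Of 113 listed genes 112 are in the table and 90 were tested, of which 18 fell and none rose. Over all tested genes, 7.89% were called lower and 3.81% higher. The median log2 change of the 90 genes was -0.09. With the GC and length trend subtracted, 5 were lower and 1 was higher, against 1.65% and 2.01% of all genes.

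Among the ligands, 2 of 10 tested genes fell, where 7.89% of all tested genes were called lower. The 2 were Wnt7b, which acts from epithelia, and Wnt5a, a ligand of the distal mesenchyme that acts mostly outside the beta-catenin branch. The authors' deposited table gave Wnt7b a log2 change of -0.32 with an SE of 0.107 (adjusted p = 0.0324) and Wnt5a one of -0.16 with an SE of 0.056 (adjusted p = 0.0498). Neither passed with the trend subtracted. Wnt6, named after its value was seen, had the largest change of the 10, -0.43 with an SE of 0.155 in the authors' deposited table. It was not called (adjusted p = 0.0509, and 0.528 with the trend subtracted). Of the 10 tested ligands, 8 had a negative log2 change. None of the 4 tested genes of ligand processing passed, with log2 changes in the authors' deposited table of 0.10 (SE 0.058) for Wls, which escorts Wnt proteins to the surface, and 0.09 (SE 0.066) for the glypican gene Gpc3.

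Among the receptors, 5 of 15 tested genes fell, against 7.89% called lower over all tested genes. Fzd10 was at 71.1% of the Inv1 level, with a log2 change of -0.49 with an SE of 0.091 (adjusted p = 1.21e-05) by the authors' deposited table. The Lrp5 co-receptor had a log2 change of -0.37 (SE 0.083), Fzd3 one of -0.30 (SE 0.069) and Fzd1 one of -0.24 (SE 0.064), all by the authors' deposited table. Ror2, a receptor for Wnt5a, also fell by 0.24 (SE 0.081) there and is named beyond the naming rule, to complete the 5. With the trend subtracted, Fzd10 (-0.36, adjusted p = 0.00678) and Fzd3 (-0.33, adjusted p = 0.000334) still passed.

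None of the 5 tested R-spondin and Lgr genes passed, and their values lay on both sides of 0, with a median of 0.17. Of the negative ones, named after their values were seen, Rspo2 had a log2 change of -0.35 and Rspo4 one of -0.37 in the authors' deposited table. Lgr5, named likewise, had the largest change of the list, 0.55 with an SE of 0.226 (adjusted p = 0.0918) by the authors' deposited table. Lgr4, a receptor for R-spondins, had a log2 change of 0.22 with an SE of 0.107 (adjusted p = 0.162) and Rspo3 one of 0.17 with an SE of 0.099 (adjusted p = 0.249) by the authors' deposited table. Of 12 other tested antagonists, 1 fell and 11 did not pass. That share, 8.33%, was close to the 7.89% of all tested genes called lower. The gene that fell was Sost, an Lrp antagonist, by 0.61 on the log2 scale with an SE of 0.215 (adjusted p = 0.0422) in the authors' deposited table. With the trend subtracted Sost did not pass either (adjusted p = 0.236). The median of that list was 0.10.

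In the cytoplasm, 3 of 18 tested components fell, or 16.7%, against 7.89% called lower over all tested genes. In the authors' deposited table Dvl3 fell by 0.23, Gsk3b by 0.19 and Fbxw11 by 0.17 on the log2 scale. They act at different points, Dvl3 as a transducer, the kinase Gsk3b and the ubiquitin ligase subunit Fbxw11 in the turnover of beta-catenin, and none of the 3 passed with the trend subtracted. Set against the same 7.89%, 4 of 12 tested nuclear cofactors fell. Beside Tcf7l1, these were Aes (-0.38, SE 0.077), the corepressor gene Tle3 (-0.25, SE 0.076) and the coactivator gene Pygo2 (-0.19, SE 0.065), by the authors' deposited table. With the trend subtracted Tcf7l1 still passed (-0.25, adjusted p = 0.0351), and Tle2, at 0.27 in the authors' deposited table (adjusted p = 0.165), became a call in the higher direction (0.46, adjusted p = 0.0224).

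Of 14 other tested genes reported as Wnt targets, 3 fell, against 7.89% called lower over all tested genes. Mycn, a growth regulator, had a log2 change of -0.60 with an SE of 0.119 (adjusted p = 7.15e-05) by the authors' deposited table. Sp8, a zinc finger gene of the limb ectoderm and apical ridge, had one of -0.64 with an SE of 0.183 (adjusted p = 0.00928), and the Notch ligand gene Jag1 one of -0.41 with an SE of 0.123 (adjusted p = 0.0160) by the authors' deposited table. Mycn and Sp8 passed with the trend subtracted as well (adjusted p = 0.00327 and 0.0302).

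**Figure D4:**
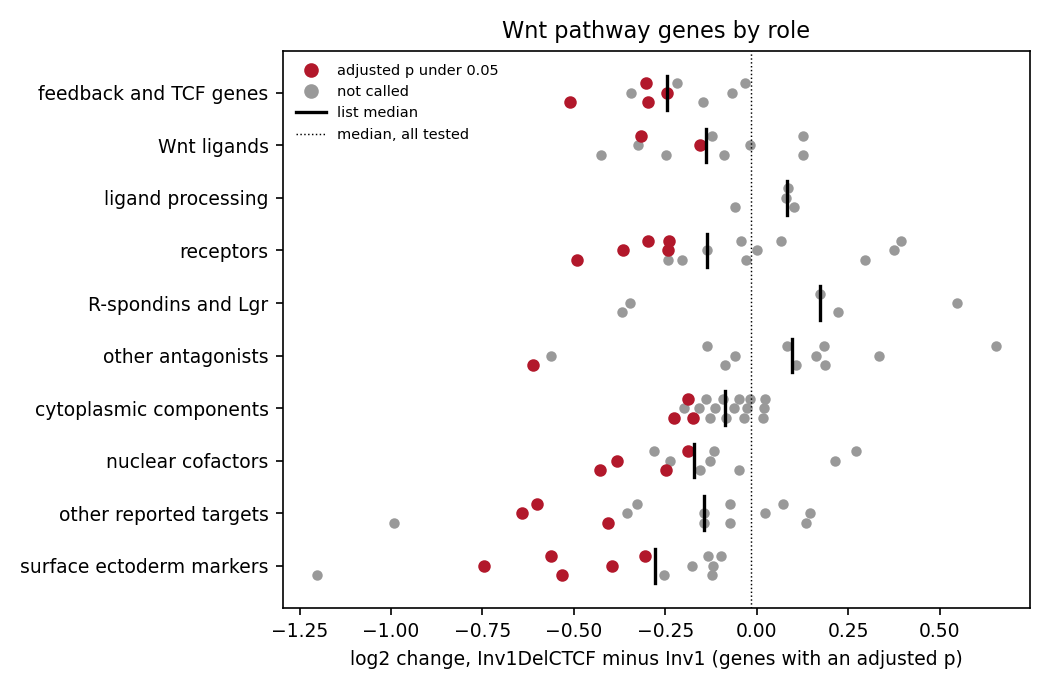
log2 change (Inv1DelCTCF minus Inv1) of every gene with an adjusted p in the list of feedback and TCF genes, in 8 lists of other Wnt pathway genes and in surface ectoderm markers. Red points passed an adjusted p of 0.05, short black lines are list medians and the dotted line is the median of all tested genes at -0.01; all red points lie at negative values.

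Of 12 tested markers of the surface ectoderm, 5 fell, 7 did not pass and none rose, where 7.89% of all tested genes were called lower. The log2 change was negative for all 12, with a median of -0.28. Their rebuilt levels, summed over all 14 markers in the table, were 12858 normalised counts in Inv1DelCTCF and 15447 in Inv1. In the authors' deposited table Krt5 fell by 0.30, Cldn6 by 0.53, Cdh1 by 0.39 and Krt18 by 0.56 on the log2 scale, as did Krt8 by 0.74. With the trend subtracted 1 of them, Cldn6, passed (-0.44, adjusted p = 0.0347). No marker of the list was at 0. Fgf8 had the lowest log2 change of all tested genes, -1.20, but with an SE of 0.609 it did not pass (adjusted p = 0.188). In bulk tissue, fewer cells of a type and less RNA per cell cannot be told apart, and the part of the ectoderm in the changes of the Wnt genes was not tested.

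Markers of other cell types were also among the calls. Of all tested genes, 7.89% were called lower and 3.81% higher. Of 10 limb mesenchyme markers Lhx2, Hoxd12 and Hoxa13 fell, with summed levels over the list of 96163 normalised counts in Inv1DelCTCF and 95674 in Inv1. Msx1, on the same list, had a log2 change of -0.99 with an SE of 0.421 and did not pass (adjusted p = 0.103). Of these 10 markers, 5 had a negative log2 change. Of 8 endothelial markers 1 fell (Cdh5), a share of 12.5%, close to the 11.7% called over all tested genes. Of 5 tested erythroid markers 2 fell (Hba-x and Hbb-bh1). Hba-a1 and Hba-a2 had a mean of 0, beside 27775 normalised counts for Hba-x and 45060 for Hbb-y. The reason was not tested, and a mean of 0 is not read here as absence of RNA. No marker of muscle precursors (5 tested), cartilage (6), macrophages (4) or Schwann cells and nerve (2) passed, and their medians were 0.06, 0.24, 0.25 and 0.38. The cartilage marker Acan had the highest log2 change of all tested genes, 1.56 with an SE of 0.683 (adjusted p = 0.115). Of the 6 tested cartilage markers, 1 had a negative log2 change. The macrophage marker Adgre1 had a mean of 0, beside 371 normalised counts for Csf1r and 376 for Mrc1, and the reason was likewise not tested. With the trend subtracted, 2 erythroid markers were lower, 1 macrophage marker was higher and no marker of the other 5 lists in this paragraph passed. Over all genes, 1.65% were then called lower and 2.01% higher. The part of these cell types in the changes of the Wnt genes was not tested.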

How the data were processed

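STAR, DESeq2 and mouse build mm9 are listed, with no version, per the submitters' processing notes. The authors deposited tables of comparisons. Per the file headers, each row holds a mean normalised count (a signal averaged over libraries), a log2 fold change and its SE, a Wald score, a p-value and an adjusted p-value. The deposited score equals log2 change over SE in every row with a value.

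The headers do not name the numerator. Rebuilding the Inv1 level of 49 genes shared with the wild type tables gave a median residual of 0.0124 when the table was read as Inv1 over Inv1DelCTCF, and at least 0.107 otherwise, so its sign was turned here. Group levels solve the mean over 2 and 3 libraries for both groups. Intervals are the change plus or minus the normal 95% quantile times SE.

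Transcript length and GC were read from the longest transcript of GENCODE M21 (GRCm38) and found for 97.5% of tested genes, 97.3% of called genes and all 10 Wnt genes. The trend subtracted held powers up to 3 of GC content and of log2 length and their product, weighted by SE, over genes with an adjusted p. The coordinates printed are those of the RefSeq windows on GRCm38.p6, not of the authors' build.

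The genes and lists were chosen with earlier results of these data known. Named are the 10 genes and, of each pathway list, up to 4 called genes by adjusted p or, with none called, the 2 most abundant. Beyond this rule, and after their values were seen, Tcf7l2, Tle2, Ror2, Rspo2, Rspo4, Lgr5, Wnt6, Hbp1 and all marker genes were named. Calls, trend, rebuilt levels and direction were tested on simulated data. Alternatives covered thresholds, adjustment, minimum means and changes, recentring and the trend. Python 3.11.15, numpy 2.4.6, pandas 2.3.3, SciPy 1.17.1 and matplotlib 3.10.9 were used.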

Additional observations from a re-analysis of the deposited data

How the results depend on the processing

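The count of 4 called Wnt feedback and TCF genes stayed within 3 to 4 under every alternative run except the subtraction of the GC and length trend, which left 2, while those others called 576 to 1954 of all genes. Over all genes the count of 1312 became 576 at an adjusted p under 0.01 and 400 with the trend subtracted. The count of 18 of 90 other Wnt pathway genes became 28 at an adjusted p under 0.1 (1954 of all 11218 genes), 8 at 0.01 (576 of all), 10 of 112 with adjustment over every gene with a p (922 of all 21940), 10 with a minimum log2 change of 0.25 (948 of all 11218) and 6 with the trend subtracted (400 of 10940). Of these, 2 were higher at 0.1 (Lgr5 and Hbp1) and 1 with the trend subtracted. Relative to the median of all genes 1 was higher and 14 were lower. Lef1 and Tcf7 kept their call under all alternatives, Axin2 lost it with the minimum change and with the trend subtracted, and Znrf3 at 0.01 and with the trend subtracted. The sign of Nkd2 reversed with the trend subtracted (0.052). The cause of the trend was not tested. The direction of the table was the same with shared genes of a mean of at least 100 or 20.

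No paired analysis was possible because the tables hold no values per library, and leaving out a replicate was not run for the same reason. The comparison of protein sequences that had been planned was not run. Sp5, Rnf43, Notum and Dkk1 had the lowest means and the largest SE values of the 10 genes.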
